A study of Mus musculus with 20 samples.

Results

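The genes described here encode 3 classes of splicing factor: the SR proteins, the heterogeneous nuclear ribonucleoproteins (hnRNPs), and the subunits of the SF3A and SF3B complexes. They were chosen with earlier results of these data known, by a rule on names. The rule took every gene on the array whose annotated symbol begins with Hnrnp or is Tra2a or Tra2b. It also took every symbol that is Srsf, Sf3a or Sf3b followed by a number. This gave 40 of the 18193 genes that the annotation names by a single symbol, namely 12 SR genes (Tra2a and Tra2b included), 19 hnRNP genes and 9 SF3 genes. A probe set is a group of short probes against a single transcript region. The 40 genes had 132 probe sets, and each gene was represented by the probe set with the highest mean signal over the 20 arrays. That probe set was bright enough to be tested for 39 genes and 111 of the 132 probe sets were tested in all. Srsf12 was the gene left untested. Another 7 probe sets carry such a name together with other gene symbols and were left out.

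Left ventricles of 20 male C57BL/6J mice gave the RNA. The mice were 6 weeks old on arrival, had 2 weeks to acclimate and were on their diets for 4 weeks. Control mice ate plain chow. The other 4 groups ate chow mixed with powdered statin tablets, at daily doses per kg of body weight of 4.5 mg for pitavastatin, 10.9 mg for rosuvastatin, 11.4 mg for atorvastatin and 21.0 mg for pravastatin. Statins inhibit HMG-CoA reductase and with it cholesterol synthesis. Each group held 4 mice with 1 array each, and the doses differ between the statins, so their values are given side by side.

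SR proteins carry RNA recognition motifs and a tail rich in arginine and serine, and they typically bind enhancer elements in exons and recruit the spliceosome there. The hnRNPs coat nascent transcripts, and many of them silence splice sites or compete with SR proteins for them. SF3A and SF3B belong to the U2 small nuclear ribonucleoprotein, which recognises the branch site of an intron. In the heart, SR and hnRNP proteins help to set the isoforms of calcium-handling and sarcomere genes. The arrays used here read transcript abundance near the ends of messages and do not measure splicing itself.

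RefSeq promoters were matched for 36 of the 40 genes (49 promoters), and the 250 bases before each start were searched on both strands for 6 motifs: the CCAAT box, the GC box (GGGCGG), the TATA box (TATAAA), the ETS motif (CCGGAAG), the NRF1 motif and the E-box CACGTG. Matches of different motifs were allowed to overlap. The ETS motif was present upstream of 6 of the 7 SF3 genes matched (85.7%), 3 of 12 SR genes (25%) and 2 of 17 hnRNP genes (11.8%), against 15.5% of the 9044 genes tested on the array and 7.83% of all 27025 genes with a promoter. The CCAAT box was found for 12 of 17 hnRNP genes (70.6%), 4 of 12 SR genes (33.3%) and 2 of 7 SF3 genes (28.6%), against 39.9% of the tested genes and 37.5% of all. The GC box was found for 28 of the 36 genes (77.8%, against 63.1% and 35.4%), the TATA box for 4, the E-box for 2 and the NRF1 motif for 1. The median number of CpG pairs in the window was 22 for the promoters of these genes, 15 for those of the tested genes and 6 for all promoters. These are counts of letters, given as a description with no test. The upstream sequences below are those of 3 SF3 genes with the ETS motif and of Hnrnpl and Hnrnpa1, the members whose signals differed most between the groups. Capitals mark the CCAAT box, the GC box and the ETS motif on either strand, and each sequence runs 5' to 3' along the strand of its gene.
Sf3a1, GRCm38.p6 chr11:4160104-4160353, + strand: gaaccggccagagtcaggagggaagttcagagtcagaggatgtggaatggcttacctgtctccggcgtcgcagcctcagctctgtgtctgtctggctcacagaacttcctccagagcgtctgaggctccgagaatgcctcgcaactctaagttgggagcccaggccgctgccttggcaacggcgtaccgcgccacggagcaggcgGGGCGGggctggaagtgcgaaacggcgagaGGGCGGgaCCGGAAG
Sf3a3, GRCm38.p6 chr4:124714611-124714860, + strand: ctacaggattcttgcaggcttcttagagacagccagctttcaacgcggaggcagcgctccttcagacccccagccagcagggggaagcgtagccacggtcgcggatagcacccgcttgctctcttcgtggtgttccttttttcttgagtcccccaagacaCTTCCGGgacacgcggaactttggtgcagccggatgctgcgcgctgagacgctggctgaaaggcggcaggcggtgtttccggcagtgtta
Sf3b6, GRCm38.p6 chr12:4817358-4817607, + strand: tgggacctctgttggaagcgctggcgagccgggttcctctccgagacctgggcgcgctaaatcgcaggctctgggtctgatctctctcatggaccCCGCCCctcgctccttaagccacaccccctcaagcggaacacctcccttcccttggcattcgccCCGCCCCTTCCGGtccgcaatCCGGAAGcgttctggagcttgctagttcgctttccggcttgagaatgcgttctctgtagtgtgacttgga
Hnrnpl, GRCm38.p6 chr7:28810640-28810889, + strand: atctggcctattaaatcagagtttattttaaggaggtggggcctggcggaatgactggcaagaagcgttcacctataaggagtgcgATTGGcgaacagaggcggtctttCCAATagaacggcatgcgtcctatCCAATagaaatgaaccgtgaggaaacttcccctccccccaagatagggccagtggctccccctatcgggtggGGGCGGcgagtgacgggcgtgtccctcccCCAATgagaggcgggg
Hnrnpa1, GRCm38.p6 chr15:103240147-103240396, + strand: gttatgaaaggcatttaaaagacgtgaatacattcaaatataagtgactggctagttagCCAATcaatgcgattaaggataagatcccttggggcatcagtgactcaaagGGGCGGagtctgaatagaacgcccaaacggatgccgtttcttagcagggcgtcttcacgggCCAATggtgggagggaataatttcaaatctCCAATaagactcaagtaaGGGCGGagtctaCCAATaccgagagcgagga
Sf3a3 has a single ETS match, Sf3b6 has a pair of them beside GC boxes, and the upstream bases of Hnrnpa1 and Hnrnpl hold several CCAAT boxes and no ETS match.

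Signal intensities are on a linear scale made with MAS5, the Affymetrix summary algorithm, and were analysed as log2(signal + 16). The trimmed mean signal was 500.003 to 500.004 for all 20 arrays, yet their median signals spread from 41.7 (rosuvastatin mouse 3) to 144 (atorvastatin mouse 2). The log2 median signal was 6.09 ± 0.48 (SD, n = 4) with rosuvastatin and 6.56 ± 0.26 (SD, n = 4) in control, a difference that an exact two-sided permutation test did not separate (p = 0.171, adjusted over the 4 statins p = 0.686, smallest p possible 0.0286). The tissue label fits its markers in signal: all 10 cardiomyocyte markers looked at were tested and had mean signals of 4884 to 42964, while 0 of 5 skeletal muscle markers were bright enough to be tested. Of 5 genes of the atrium, sarcolipin (Sln) and Bmp10 were below the brightness limit as well, while Nppa (mean signal 7438) and the atrial light chains Myl4 (826, up to 3382) and Myl7 (169, up to 1259) were tested.

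No splicing factor gene passed the test in any comparison. With limma and Benjamini-Hochberg adjustment over the 22518 tested probe sets, 0 of the 39 genes were called at 0.05 with pitavastatin (0% of all tested probe sets were called), pravastatin (0%), rosuvastatin (0%), atorvastatin (0%), the mean of the 4 statins (0%), the F test over the 5 groups (0.00444%, or 1 probe set) and the F test over the 4 statins (0%). The same held for the 111 probe sets, whose smallest adjusted p from limma was 0.356, in the F test over the 5 groups. At an unadjusted p under 0.05, 1 of the 39 genes stood out with pitavastatin (1.89% of all tested probe sets did), 5 with pravastatin (3.9%), 3 with rosuvastatin (11.1%), 2 with atorvastatin (4.52%), 2 for the mean of the statins (3.01%), 6 in the F test over the 5 groups (6.19%) and 7 in the F test over the 4 statins (7.54%). The genes below are therefore described by their values. All comparisons with control share the same 4 control arrays.

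The median log2 fold change of the 39 genes against control, where 1 unit is a 2-fold difference, was highest with rosuvastatin at 0.11, followed by atorvastatin at 0.07, pravastatin at 0.06 and pitavastatin at -0.02. Over all tested probe sets the medians were -0.02, -0.03, -0.02 and -0.004 in that order. With rosuvastatin 30 of the 39 genes had a mean above control (45.7% of all tested probe sets did), with atorvastatin 28 (43.7%), with pravastatin 28 (44.8%) and with pitavastatin 18 (48.9%). Those shares include dim probe sets; over the 11201 genes taken with 1 tested probe set each they were 53.5%, 47.1%, 47.0% and 50.8% in that order. For the mean of the 4 statins 27 were above control (44.5%, or 50.1% with 1 probe set per gene), with a median of 0.03. Without control mouse 2, 18 genes were above control for the mean of the statins, with a median of -0.01, and the median was 0.003 with pravastatin, 0.03 with atorvastatin and 0.06 with rosuvastatin. Without atorvastatin mouse 1 the atorvastatin median was 0.02. For the SR genes the medians for pitavastatin, pravastatin, rosuvastatin and atorvastatin were -0.05, 0.10, 0.12 and 0.07, and for the hnRNP genes -0.04, 0.08, 0.08 and 0.07 in the same order. The SF3 genes had medians of 0.05, -0.09, 0.10 and 0.04, and 7 of these 9 genes had a mean below control with pravastatin. Because the RNA came from whole ventricle, fewer cells of a type and less RNA per cell cannot be told apart in any of these values.

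**Figure D1:**
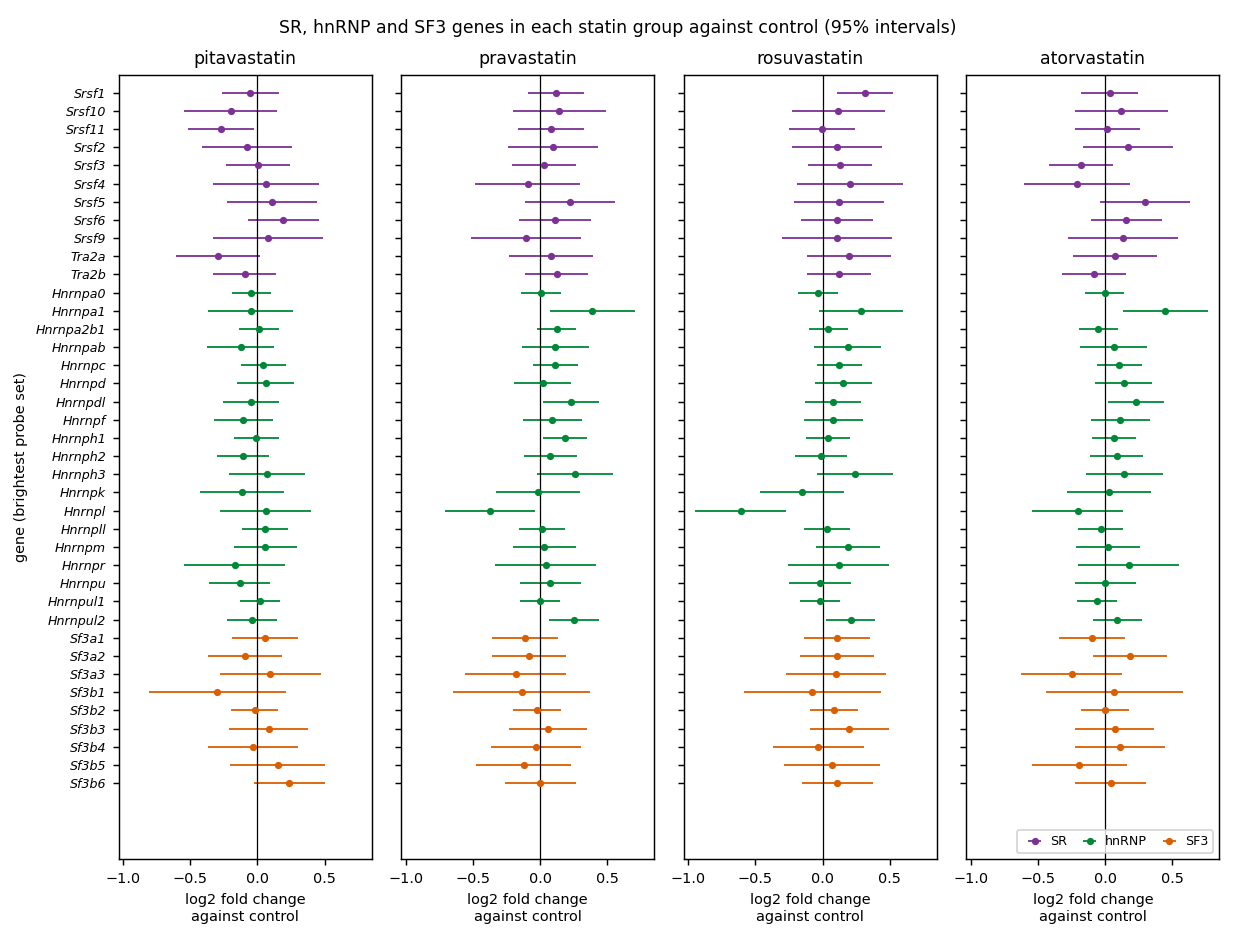
Log2 fold change against control (x axis) of the brightest probe set of 39 splicing factor genes (y axis) in 4 statin groups of 4 mice, with 95% intervals from limma; colours mark the SR, hnRNP and SF3 classes. Most intervals include 0, and Hnrnpl with rosuvastatin, at -0.61, has the lowest value.

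Among the SR genes, Srsf1 had the largest difference with rosuvastatin. Srsf1 is the founding SR protein, whose loss in the mouse heart is known to disturb the splicing of Camk2d. Its log2 signal was 12.35, 12.51, 12.81 and 12.43 in control and 12.77, 12.83, 13.01 and 12.75 with rosuvastatin. It was 12.44, 12.40, 12.62 and 12.41 with pitavastatin, 12.73, 12.67, 12.58 and 12.59 with pravastatin, and 12.71, 12.34, 12.51 and 12.68 with atorvastatin. The rosuvastatin mice lay above 3 of the 4 control mice, and control mouse 3 fell inside their range. The log2 fold change with rosuvastatin was 0.32 (SE 0.10, adjusted p = 0.448 by limma), beside 0.12 with pravastatin, 0.03 with atorvastatin and -0.05 with pitavastatin. With the median signal of each array as a covariate the rosuvastatin value was 0.18.

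With pitavastatin, Srsf11 and Tra2a were the SR genes with the lowest values. Srsf11 encodes an SR protein of nuclear speckles. Its log2 signal was 9.59, 9.35, 9.73 and 9.74 in control and 9.39, 9.18, 9.43 and 9.31 with pitavastatin, so 3 of the control mice were above every pitavastatin mouse and control mouse 2 was not. The log2 fold change was -0.27 (SE 0.12), beside 0.08 with pravastatin, -0.01 with rosuvastatin and 0.02 with atorvastatin. Tra2a, which encodes a homolog of the fly splicing regulator transformer 2, read 10.26, 9.76, 9.88 and 10.36 in control and 9.89, 9.58, 9.77 and 9.86 with pitavastatin, and the groups overlapped. Its log2 fold change was -0.29 (SE 0.15) with pitavastatin, beside 0.20 with rosuvastatin, 0.08 with pravastatin and 0.07 with atorvastatin. Neither gene was called with pitavastatin (adjusted p = 1.00 by limma for both).

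Srsf6 and Srsf5 had the highest SR values with pitavastatin and atorvastatin. Srsf6 had a log2 fold change of 0.19 (SE 0.13) with pitavastatin and 0.11 to 0.16 in the other statin groups. Srsf5, an SR protein that like its relatives is regulated by phosphorylation, had 0.30 (SE 0.16) with atorvastatin, where 1 mouse at 11.42 stood above the other 3 at 10.75 to 10.94, and control ran from 10.46 to 11.07. Srsf4, among the 5 dimmest of the 39 genes by their brightest probe set (mean log2 signal 8.41), had -0.21 (SE 0.19) with atorvastatin and 0.21 with rosuvastatin. Its rosuvastatin mice ranged from 8.20 to 9.14, wider than control at 8.15 to 8.64. The remaining tested SR genes, Srsf2, Srsf3, Srsf9, Srsf10 and Tra2b, lay between -0.20 and 0.17 in all 4 comparisons. Srsf12 was near the bottom of the scale, with linear signals of 0.631 to 32.4 over the 20 arrays, and has no fold change here.

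Of the hnRNP genes, Hnrnpl had the lowest value in 3 statin groups. Hnrnpl binds CA-rich elements and can act as a silencer or an enhancer of exons. Its log2 signal was 8.04, 8.33, 8.17 and 8.58 in control, 7.76, 7.78, 7.64 and 7.50 with rosuvastatin, and 7.56, 7.89, 8.24 and 7.95 with pravastatin. It was 7.92, 8.25, 8.20 and 7.94 with atorvastatin and 8.56, 8.02, 8.35 and 8.44 with pitavastatin. Every rosuvastatin mouse was below every control mouse, which 2.75% of all tested probe sets also showed, and each of the other groups overlapped control. The log2 fold changes were -0.61 (SE 0.16, adjusted p = 0.448 by limma) with rosuvastatin, -0.37 (SE 0.16) with pravastatin, -0.20 (SE 0.16) with atorvastatin and 0.06 (SE 0.16) with pitavastatin. The F test over the 5 groups gave F = 5.83 (adjusted p = 0.423 by limma). The rosuvastatin value was -0.47 with quantile normalization and -0.50 with the median signal of the arrays as a covariate. It was between -0.69 and -0.51 when single arrays were left out. The only other probe set of Hnrnpl was too dim to test, so its value rests on a single probe set. That probe set is among the 5 dimmest that stand for these genes. With rosuvastatin, 12.0% of all probe sets at a mean log2 signal of 7 to 8 were lower at an unadjusted p under 0.05 by limma. The share was 7.74% from 8 to 9 and 1.21% from 10 to 12. The part of brightness in the Hnrnpl value was not tested.

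Hnrnpa1 had the highest values with pravastatin and atorvastatin. It encodes an abundant shuttling hnRNP that opposes SR proteins in the choice of splice sites. Its log2 signal was 10.46, 10.09, 9.93 and 9.95 in control and 10.32, 9.98, 10.15 and 9.76 with pitavastatin. With pravastatin it was 10.72, 10.44, 10.56 and 10.28, with rosuvastatin 10.67, 10.24, 10.48 and 10.18, and with atorvastatin 10.78, 10.39, 10.74 and 10.32. In these last 3 groups every mouse was above 3 of the 4 control mice, and control mouse 1 at 10.46 fell within each of them. Mouse 1 had the highest value in each of the 5 groups. The log2 fold changes were 0.45 (SE 0.15) with atorvastatin, 0.39 (SE 0.15) with pravastatin, 0.29 (SE 0.15) with rosuvastatin and -0.05 (SE 0.15) with pitavastatin, with F = 4.53 over the 5 groups (adjusted p = 0.591 by limma). With the median signal as a covariate the rosuvastatin value was 0.15. A second probe set of the gene gave 0.51, 0.24, 0.21 and -0.06 in that order (SE 0.21), and another, dim one gave -0.06, 0.00, -0.15 and -0.26 (SE 0.23).

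**Figure D2:**
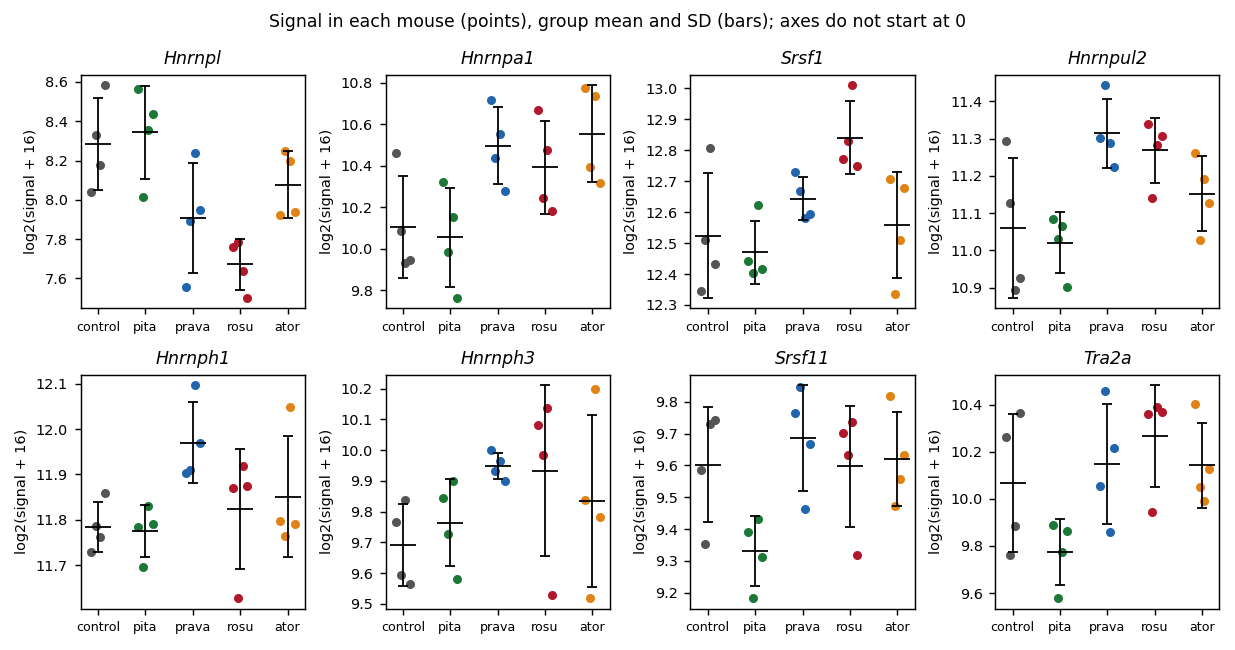
Log2(signal + 16) (y axis, not starting at 0) of 8 splicing factor genes in each of 20 mice by group (x axis); points are mice and bars the group mean and SD. The rosuvastatin mice lie below all control mice for Hnrnpl, and the pravastatin mice above all control mice for Hnrnph1 and Hnrnph3.

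Hnrnph1 and Hnrnph3 encode related proteins that bind runs of G. By the brightest probe set, these were the 2 genes whose pravastatin mice all lay above control. Of all tested probe sets, 1.91% did so. Hnrnph1 read 11.73, 11.79, 11.76 and 11.86 in control and 11.90, 11.91, 12.10 and 11.97 with pravastatin, a log2 fold change of 0.19 (SE 0.08). Its other tested probe set overlapped control, with linear signals of 778 to 1221 with pravastatin and 640 to 1226 in control. The correlation of that probe set with the brightest over the 20 arrays was -0.05. Hnrnph3 read 9.77, 9.60, 9.84 and 9.56 in control and from 9.90 up with pravastatin, a log2 fold change of 0.26 (SE 0.14). The gap between the groups was small in both, and neither was called (adjusted p = 0.993 by limma). Hnrnph3 also had 0.24 (SE 0.14) with rosuvastatin, where 3 mice were at 9.99 to 10.14 and 1 at 9.53, below every control mouse, and where the value was 0.09 with the median signal as a covariate. By the brightest probe set, no tested gene of the 39 was free of overlap with control in either direction with pitavastatin or atorvastatin. Of all tested probe sets, 0.906% were above and 0.773% below with pitavastatin, and 0.795% and 0.568% with atorvastatin. By the same probe sets, none was wholly below control with pravastatin (1.03%) or wholly above it with rosuvastatin (1.87%). Of their 111 tested probe sets, 8 were wholly above control with pravastatin, 5 with rosuvastatin, 2 with atorvastatin and 1 with pitavastatin. Wholly below it were 3 with rosuvastatin and 2 with pitavastatin. Over the whole array the shares above were 1.91%, 1.87%, 0.795% and 0.906% in that order, and those below 2.75% and 0.773%.

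Hnrnpul2, a relative of the scaffold protein hnRNP U, read 11.29, 11.13, 10.89 and 10.93 in control and 11.30, 11.44, 11.29 and 11.22 with pravastatin. The log2 fold change was 0.25 (SE 0.09) with pravastatin and 0.21 (SE 0.09) with rosuvastatin, and control mouse 1 overlapped both groups. Hnrnpdl, a paralog of Hnrnpd, had 0.23 (SE 0.10) with both pravastatin and atorvastatin. With atorvastatin its second brightest probe set gave 0.03, and leaving out control mouse 2 gave 0.15. Its pravastatin mice were tightly grouped at 11.89 to 11.96, while control split between 11.45 to 11.47 in 2 mice and 11.87 to 11.93 in the other 2. Adjusted p from limma was 0.448 for Hnrnpul2 with rosuvastatin and at least 0.967 for the other values of this pair named here.

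Ranked by their brightest probe sets, the 5 genes with the highest signals were all hnRNP genes, and their fold changes were small. Signals of different probe sets depend on their probes and do not order the genes by expression. Hnrnpk, which binds C-rich RNA, had a mean log2 signal of 14.07 and log2 fold changes of -0.16 to 0.03 (SE 0.15), and the lowest, with rosuvastatin, turned to 0.08 with the median signal as a covariate. Hnrnpu, needed in the mouse heart for normal splicing, had -0.13 to 0.08 (SE 0.11). Hnrnpa2b1, Hnrnpa0 and Hnrnpf had -0.05 to 0.12 (SE 0.07), -0.05 to 0.01 (SE 0.07) and -0.11 to 0.11 (SE 0.11). Hnrnpa2b1 had the smallest within-group SD of the 39 genes, 0.0744, and the median over the 39 was 0.173 against 0.237 over all tested probe sets. The 39 are the brightest probe sets of their genes, and the sets compared were not matched for brightness. Hnrnpc, Hnrnpd, Hnrnpab, Hnrnpr, Hnrnph2, Hnrnpll, Hnrnpm and Hnrnpul1 lay between -0.17 and 0.19 with their brightest probe set.

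Of the SF3 genes, Sf3b6 had the highest value with pitavastatin. Its protein, the small SF3B subunit p14, sits close to the branch site. The log2 signal was 10.41, 10.68, 10.84 and 10.58 in control and 10.74, 10.83, 10.88 and 11.00 with pitavastatin, and the groups overlapped through control mouse 3. The log2 fold change was 0.24 (SE 0.13, adjusted p = 1.00 by limma), beside 0.00, 0.11 and 0.04 with pravastatin, rosuvastatin and atorvastatin. Its second brightest probe set, read in the same arrays, gave 0.03 (SE 0.12) with pitavastatin.

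Sf3b1, the large subunit of SF3B that clamps the branch site helix, had the widest spread within groups, with an SD of 0.382. It read 12.15, 11.24, 11.09 and 11.76 in control and 11.58, 10.85, 11.35 and 11.26 with pitavastatin, a log2 fold change of -0.30 (SE 0.24). Its second probe set, of similar signal (mean log2 11.30 against 11.47), gave -0.02 (SE 0.08). Sf3a3, which joins SF3A to the rest of the particle, had -0.25 (SE 0.18) with atorvastatin and -0.18 (SE 0.18) with pravastatin, and its atorvastatin mice at 7.50 to 8.09 overlapped control at 7.83 to 8.12. The other tested probe set of Sf3a3 turned both directions, with 0.07 (atorvastatin) and 0.36 (pravastatin). Sf3b5 had 0.15 (SE 0.17) with pitavastatin. Sf3b4, with a mean log2 signal of 7.48 the dimmest of the 39, had -0.04 to 0.11 (SE 0.16), and Sf3b2 -0.02 to 0.09 (SE 0.08). Sf3a1, Sf3a2 and Sf3b3 lay between -0.11 and 0.20.

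Probe sets of the same gene often differed. For 27 of the genes there were 72 further tested probe sets, and the median correlation of each with the brightest one over the 20 arrays was 0.25, with 19 below 0 and 23 above 0.5. Over all 4745 genes with several tested probe sets (7734 further probe sets) the median was 0.23. The sign of the fold change was that of the brightest probe set for 70.8% of the 72 with pravastatin, 68.1% with rosuvastatin, 55.6% with atorvastatin and 54.2% with pitavastatin, against 60.8%, 58.1%, 58.8% and 57.4% over all such genes. Probe sets of a gene can target different ends or isoforms, and those ending in _x_at or _s_at can share probes with other transcripts, which made up 34 of the 132 here and were the brightest for 12 of the 40 genes, Srsf1, Srsf6, Hnrnpa1 and Sf3b1 among them. Counting all 111 tested probe sets, the share at an unadjusted p under 0.05 was 10.8% with pravastatin, 9.91% with rosuvastatin, 6.31% with atorvastatin and 2.70% with pitavastatin, against 3.9%, 11.1%, 4.52% and 1.89% of all tested probe sets. These probe sets are not independent of each other.

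The probe sets described next were picked after their values had been seen. A second probe set of Hnrnpd, the gene of the AU-rich element binding protein AUF1, read 8.13, 8.15, 7.91 and 7.96 in control, 8.33, 8.49, 8.63 and 8.45 with pravastatin, 8.47, 8.46, 8.69 and 8.37 with rosuvastatin, and 8.53, 8.58, 8.55 and 8.47 with atorvastatin. These 3 groups lay wholly above control, and pitavastatin at 7.76 to 8.38 did not. Of all tested probe sets, 1.91% lay wholly above control with pravastatin, 1.87% with rosuvastatin and 0.795% with atorvastatin. The 3 comparisons share the same control arrays and are not independent of each other. The log2 fold changes were 0.44, 0.46 and 0.50 (SE 0.13, adjusted p = 0.795, 0.448 and 0.778 by limma), and 0.09 with pitavastatin. The brightest probe set of Hnrnpd gave 0.02, 0.16, 0.14 and 0.06 in the same order (SE 0.10), and the dimmest tested one gave -0.19 with rosuvastatin.

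Another probe set of Srsf6, the next after its 2 brightest, was even within control, at 9.78, 9.80, 9.80 and 9.76, and read 10.02, 9.98, 10.17 and 10.18 with pravastatin. Its log2 fold change was 0.30 (SE 0.08, adjusted p = 0.645 by limma) with pravastatin, 0.19 with atorvastatin, 0.13 with rosuvastatin and -0.04 with pitavastatin. Its next brighter probe set gave -0.09, -0.18, -0.06 and 0.04 in that order. For Srsf1, a probe set at a mean log2 signal of 11.90 gave 0.24 (SE 0.08) with rosuvastatin, 0.22 with pravastatin, 0.09 with atorvastatin and -0.14 with pitavastatin. It had the smallest adjusted p of these genes' probe sets in the F test over the 4 statins, 0.444 by limma. The 6 tested probe sets of Srsf1 ran from -0.05 to 0.32 with rosuvastatin.

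Hnrnpc, which binds uridine tracts, had the widest range between its probe sets, 1.32 on the log2 scale with rosuvastatin. Its dim probe set gave -1.20 (SE 0.53) there, with mice at 7.17, 7.55, 4.89 and 7.52 against control at 7.90, 7.59, 7.85 and 8.57, while the brighter ones gave 0.12 and 0.04. The low mouse was rosuvastatin mouse 3, the array with the lowest median signal. A dim probe set of Sf3a3 read 7.48, 7.53, 7.57 and 7.39 with pitavastatin and 6.59, 7.14, 6.65 and 7.06 in control, a log2 fold change of 0.63 (SE 0.17, adjusted p = 1.00 by limma), beside 0.10 for the brightest one. In Hnrnpab, Hnrnpdl, Hnrnpr, Sf3b2, Srsf11 and Tra2a the probe sets spanned 0.57 to 0.74 in their widest comparison. In Hnrnpr, Sf3b2, Srsf11 and Tra2a the lowest value of that comparison, rosuvastatin, came from the dimmest tested probe set, at -0.44, -0.52, -0.54 and -0.49.

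**Figure D3:**
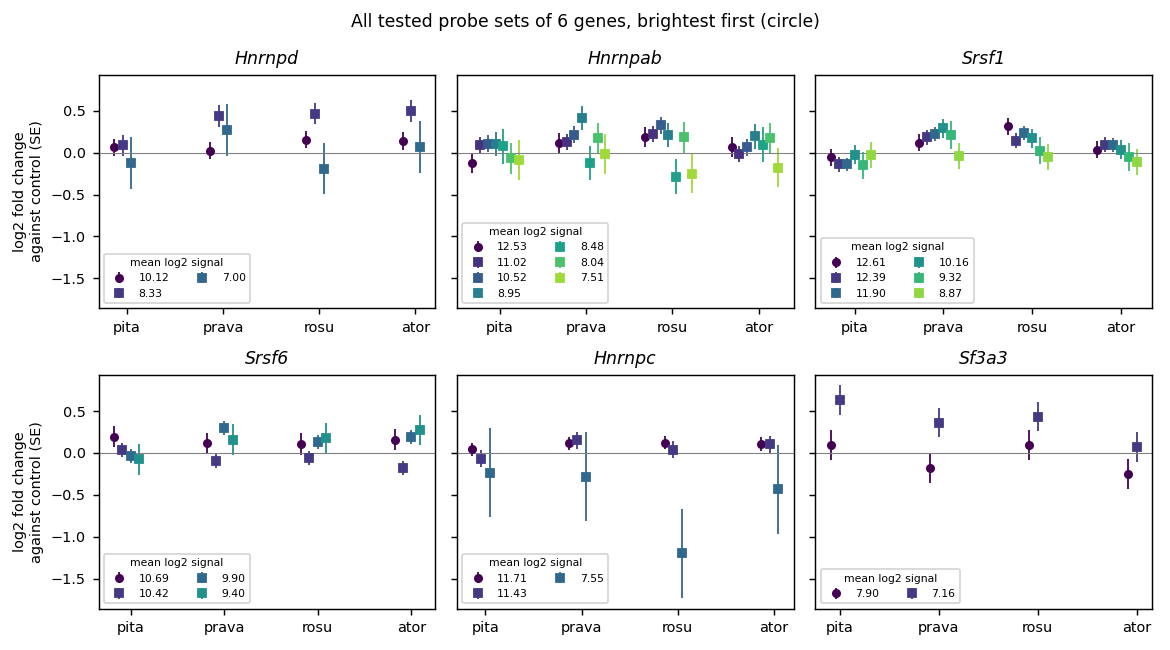
Log2 fold change against control (y axis, with SE) in 4 statin groups (x axis) for every tested probe set of 6 genes, with the brightest as a circle and the others as squares coloured by mean log2 signal. The dim probe set of Hnrnpc reaches -1.20 with rosuvastatin while the brighter ones stay near 0.

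With rosuvastatin, fold changes moved with brightness across the whole array. Over all tested probe sets the median rosuvastatin value was -0.41 at a mean log2 signal under 7, -0.16 from 7 to 8, -0.02 from 8 to 9, 0.05 from 9 to 10, 0.07 from 10 to 12 and -0.01 at 12 or more. The splicing factor probe sets had -0.22 (6 probe sets), -0.14 (10), 0.09 (16), 0.09 (21), 0.11 (43) and 0.06 (15) in the same ranges. From 10 to 12, 11.6% of them were below control with rosuvastatin, against 28.0% of all probe sets of that brightness. With pravastatin those from 9 to 10 had a median of 0.18 and 9.52% of them were below control, against 0.01 and 46.2% of all probe sets of that brightness. From 10 to 12 the pravastatin medians were 0.11 and 0.03. At 12 or more, 80% of the splicing factor probe sets were below control with pitavastatin, against 37.8% of all probe sets of that brightness. With atorvastatin the shares there were 20% and 65.2%. The part of brightness in the values of these genes was not tested.

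**Figure D4:**
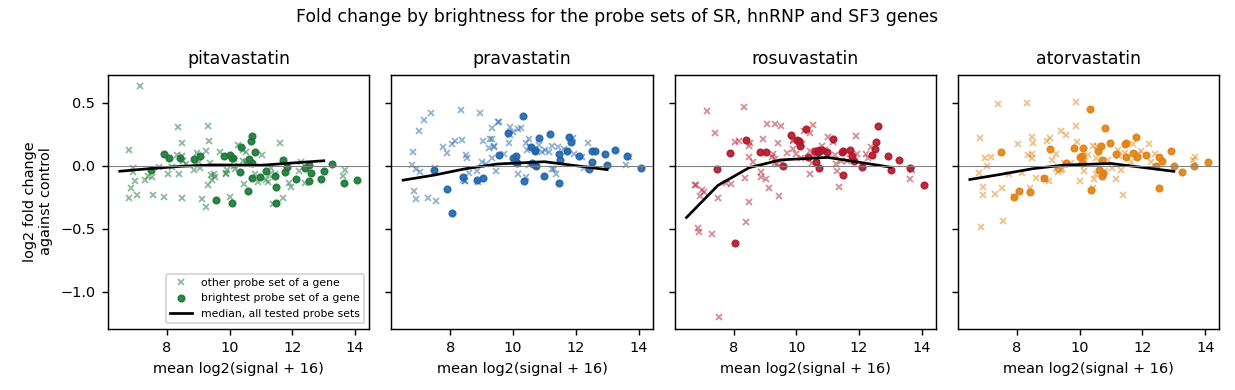
Log2 fold change against control (y axis) by mean log2(signal + 16) (x axis) for the tested probe sets of the splicing factor genes in 4 statin groups; circles are the brightest probe set of a gene, crosses the others, and the line is the median of all tested probe sets. With rosuvastatin the line falls to -0.41 at the dim end.

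Array by array, the classes did not separate the groups. The median deviation of the 39 genes from their mean over 20 arrays was -0.10 to 0.08 in control. It ran from -0.12 to 0.10 with atorvastatin, from -0.03 to 0.11 with rosuvastatin, from -0.04 to 0.06 with pravastatin and from -0.14 to 0.01 with pitavastatin. All groups overlapped control. The SF3 genes had their highest value, 0.28, in rosuvastatin mouse 3 and their lowest, -0.28, in atorvastatin mouse 2, the arrays with the lowest and the highest median signal. Without these 2 arrays the median over the 39 genes was 0.09 with rosuvastatin and 0.10 with atorvastatin. With the median signal as a covariate the medians were -0.03, 0.04, 0.05 and 0.06 with pitavastatin, pravastatin, rosuvastatin and atorvastatin.

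**Figure D5:**
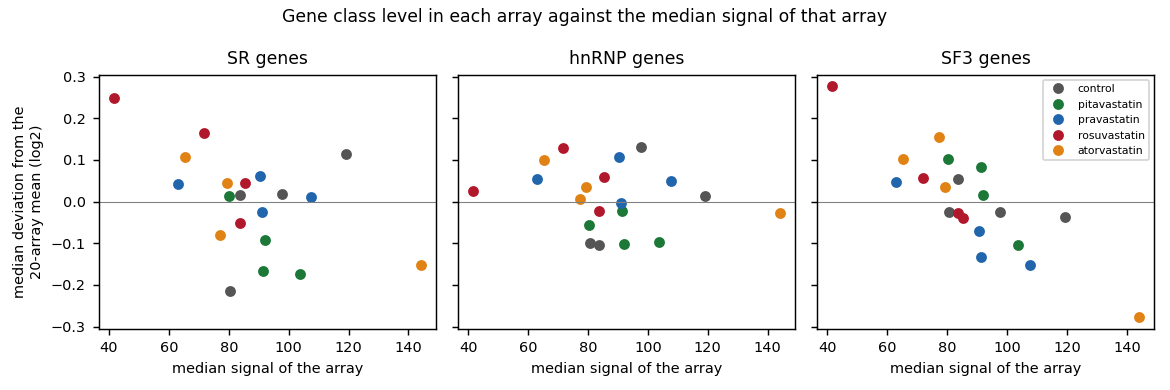
Median deviation of the SR, hnRNP and SF3 genes from their mean over 20 arrays (y axis, log2) against the median signal of the array (x axis, linear), 1 point per mouse coloured by group. The SF3 panel has rosuvastatin mouse 3 at 0.28 on the left and atorvastatin mouse 2 at -0.28 on the right.

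Means of cell type markers also differed from control. Cardiomyocyte markers had a mean below control for 10 of 10 with pravastatin (median log2 fold change -0.12), 9 of 10 with rosuvastatin (-0.19) and 10 of 10 with atorvastatin (-0.12). With pitavastatin 8 of 10 were above control (0.09). The median SE of these markers was 0.23. Of all tested probe sets at a mean log2 signal of 12 or more, 59.7%, 54.7%, 65.2% and 37.8% were below control in that order. The summed signal of the cardiomyocyte markers was 249519 to 303554 in control. The range was widest with atorvastatin, 173198 to 372114, then rosuvastatin, 174068 to 353354, then pravastatin, 221198 to 301092, and pitavastatin mice had 273947 to 314450. Fibroblast markers were below control for 7 of 7 with pravastatin and 7 of 7 with atorvastatin, and above it for 5 of 7 with rosuvastatin. Endothelial markers were above control for 6 of 7 with pitavastatin and 5 of 7 with rosuvastatin and with atorvastatin. Of 6 tested smooth muscle and pericyte markers, 5 were above control with pitavastatin and with rosuvastatin, led by Tagln at 0.90 and 1.09. The 3 tested atrial genes were above control with pitavastatin and rosuvastatin and below it with pravastatin and atorvastatin (median SE 0.61). Nppa is 1 of them and is also among the cardiomyocyte markers. The summed signal of the 5 atrial genes was 7280 to 9299 in control. It was 17076 in pitavastatin mouse 2, with the rest of that group at 7363 to 10755. In rosuvastatin mouse 3 it was 13467, with the rest of that group at 7043 to 9062. None of these markers was called. The part of cell makeup in the values of the splicing factor genes was not tested.

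The data bound how large a difference could be. The median half-width of the 95% interval was 0.25 on the log2 scale for the 39 genes, against 0.36 for all tested probe sets. The sets compared were not matched for brightness. With each statin, all 39 single intervals lay inside a 2-fold difference in either direction. They lay inside a 1.5-fold difference for 37 genes with pitavastatin, 36 with pravastatin and 35 each with rosuvastatin and atorvastatin. These intervals are for the brightest probe set, on the log2(signal + 16) scale, which understates the differences of dim probe sets, and they are not adjusted for the number of genes.

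Other genes of the splicing pathway, in 7 lists, were not called either (0 genes by limma in any of the 7 comparisons). Of 20 tested genes of the small nuclear ribonucleoproteins, 15 had a mean above control with rosuvastatin (median 0.11) and 13 with pitavastatin (0.09). The highest was Snrpd3, a core Sm protein, at 0.35 (SE 0.16) with pitavastatin, and the lowest Prpf4, of the tri-snRNP, at -0.25 (SE 0.13) with rosuvastatin. Among 11 genes of splice site recognition outside SF3, 9 were below control with pitavastatin (median -0.08) and 9 above it with pravastatin (0.08), with Luc7l2 at 0.20 and Tia1 at -0.28, both with atorvastatin. Among 15 SR-related coactivators and speckle proteins, 14 were below control with pitavastatin (median -0.12). Srrm1, a splicing coactivator, had 0.41 (SE 0.15) with atorvastatin, and Scaf1 had -0.33 (SE 0.19) with pravastatin.

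SR proteins are phosphorylated by SRPK and CLK kinases and carried into the nucleus by transportins. The 13 genes of this group had medians of 0.01 to 0.04 over the 4 statins, with Srpk2, such a kinase, at 0.17 (SE 0.07) with pravastatin and the import receptor Tnpo1 at -0.37 (SE 0.13) with pitavastatin. The 18 tissue splicing regulators of heart and muscle had medians of -0.04 to 0.04, with Rbm5 at 0.29 (SE 0.11) with rosuvastatin and Rbm38 at -0.40 (SE 0.20) with atorvastatin. Of 18 tested RNA-binding proteins akin to hnRNPs, the cold-inducible Cirbp had the highest value, 0.34 (SE 0.22) with atorvastatin, and Taf15 the lowest, -0.43 (SE 0.30) with rosuvastatin. The 11 tested genes of the exon junction and messenger export had medians of 0.01 to 0.08, with Smg5, of nonsense-mediated decay, at 0.21 (SE 0.12) with pitavastatin and the export adaptor Alyref at -0.24 (SE 0.19) with rosuvastatin.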

How the data were processed

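RNA of 20 left ventricles was hybridised to Affymetrix Mouse Genome 430 2.0 arrays after amplification with the NuGEN Ovation system, per the labels' protocols. The authors deposited signal intensities on a linear scale; MAS5 is named without a version in the submitters' processing notes, and the authors had scaled each array. Of 45101 probe sets, 64 controls were left out, and the brighter 50% of the other 45037 by mean signal over all arrays (above 88.3) were tested. Symbols came from the platform annotation (34945 probe sets with 1, 932 with several, 9160 with none). The fit of log2(signal + 16) used limma 3.58.1 (R 4.3.3) over all 20 arrays, with 1 mean per group, 15 residual degrees of freedom, a prior variance that followed a trend (4.23 prior degrees of freedom) and Benjamini-Hochberg adjustment over all 22518 tested probe sets. The procedure was tested on simulated data.

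The members and lists were chosen with earlier results of these data known. Members were named by a rule: the 3 highest and 3 lowest per statin, the 5 smallest p of each F test, the 5 brightest and 5 dimmest, those free of overlap with control, and the 8 with the widest range between probe sets; of each other list, the highest and lowest value. The 6 promoter motifs were also chosen with the results known, from RefSeq promoters of GRCm38.p6. Deviations from the group means correlated at -0.55 to 0.70 over 40 pairs of same-numbered mice of different groups (median 0.08, 18 over 0.1). For different numbers they correlated at -0.76 to 0.74 over 120 pairs (median -0.04, 46 over 0.1). Replicate numbers were not used as pairs. The labels name no shared litter or batch. Settings varied were the normalization, pseudocount, filter, prior, array weights, replicate block, probe sets per gene, groups in the fit, the median signal as a covariate and leaving out arrays. Proteins of these genes were not analysed here.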

Additional observations from a re-analysis of the deposited data

Results flagged for a closer look

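Among 28 named genes in 5 groups of 4 mice (140 groups), 5 held a mouse far from the other 3, where the gap to its nearest neighbour took a share of the range of the group above the 95% critical value of Dixon's test; chance flags about 1 in 20 groups. Hnrnpab read 12.78 in rosuvastatin mouse 2, above the nearest value of its group at 12.65. Hnrnph1 read 11.63 in the same mouse, below its neighbour at 11.87, and 12.05 in atorvastatin mouse 3, above 11.80. Tra2a read 9.94 in rosuvastatin mouse 2, below 10.36. Srsf12, close to the bottom of the scale, read 5.50 in control mouse 4, above 4.36.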

How the results depend on the processing

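The results were recomputed under 15 other settings and without each of the 20 arrays in turn; 2 of the 15, the second brightest probe set of each gene, and choosing and filtering probe sets by mean log2 signal, were added after seeing the data. No splicing factor gene was called by limma in any of these, with 1 exception. With the replicate number as a block, the F test over the 5 groups called 1 of the 39 genes, Hnrnpa1 (F = 16.5, adjusted p = 0.0469 by limma). Without the block its adjusted p by limma was 0.591. In Hnrnpa1 mouse 1 had the highest value of each group. Over all tested probe sets the median correlation of same-numbered mice was 0.08, against -0.04 for different numbers, and the labels name no batch behind the numbers. The block gave 6 probe sets in all in the F test over the 5 groups and 3 in the F test over the 4 statins. The other counts of probe sets called that moved by over 1.5 times were as follows. Pravastatin had 3 with the brightest 30% of probe sets, 16 with array weights and 6 when the median signal was a covariate, against 0. Array weights gave 12 with rosuvastatin, 4 for the mean of the statins, 190 in the F test over the 5 groups and 142 in the F test over the 4 statins, against 0, 0, 1 and 0. The F test over the 5 groups gave 3 with the brightest 30%, 0 with no trend in the prior, 0 with 1 probe set per gene, 5 with the covariate and 2 without the dimmest and brightest arrays; the F test over the 4 statins gave 1 when fitted on those groups only. Leaving out 1 array gave 0 to 22 probe sets with pravastatin, 0 to 17 with rosuvastatin, 0 to 21 with atorvastatin, 0 to 9 for the mean of the statins, 0 to 49 in the F test over the 5 groups and 0 to 2 in the F test over the 4 statins, and 0 splicing factor genes throughout.

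The median log2 fold change of the 39 genes ran over single left-out arrays from 0.06 to 0.12 with rosuvastatin, 0.02 to 0.10 with atorvastatin, 0.003 to 0.10 with pravastatin, -0.04 to 0.01 with pitavastatin and -0.01 to 0.06 for the mean of the statins. Centring each array on its median put 36 genes above control with rosuvastatin, against 30, and the second brightest probe sets, tested for 27 genes, put 22 of them above it with rosuvastatin, 20 with pravastatin, 15 with atorvastatin and 10 with pitavastatin, against 30, 28, 28 and 18 of 39. Hnrnpl has no second tested probe set and no value among the brightest 30%. Without a filter, which brings in the dim probe sets, the rosuvastatin median of all probe sets was -0.11, against -0.02. The part of brightness in this shift was not tested.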
